A study of Mus musculus with 17 samples.

Results

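The genes of the dopamine receptors, Drd1 to Drd5, and of the adenosine receptors Adora1, Adora2a and Adora2b were followed in bulk RNA sequencing of mouse prefrontal cortex. The set was chosen by name, and all 8 genes were found among the 56953 genes of the count table. In brief, Drd1, Drd2 and Adora2a were far higher in WT than in PS19 cortex, by 8.88-fold, 74.1-fold and 48.5-fold, and in CgA-KO/PS19 mice Drd2 and Adora2a were above every PS19 library in replicates 1 to 3, whereas in replicates 4 to 6 Drd2 was in or just above the PS19 range and Adora2a below it. Drd5 was lower in CgA-KO/PS19 than in WT. The comparisons of Adora1 and Adora2b over all libraries did not pass the test. The 8 libraries with the most Drd1, Drd2 and Adora2a, all 5 of WT and CgA-KO/PS19 replicates 1 to 3, were also the 8 with the highest summed level of marker genes of striatal neurons. Among the other 9 libraries Drd1 did not follow that sum.

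The samples were 5 WT, 6 PS19 (labelled hTau) and 6 CgA-KO/PS19 (labelled CgA-KO/hTau) libraries from 8-month-old mice on the B6C3F1/J background, fed regular chow. PS19 mice carry a transgene for mutant human tau (the 1N4R form with P301S) driven by the Prnp promoter. CgA-KO/PS19 mice carry it as well and lack Chga, the gene of Chromogranin A, throughout the body from conception on. WT mice have neither change. Mice that lack Chga without the transgene were not among the RNA sequencing groups, so the effect of the deletion could be read only on the transgenic background. The study used both sexes, but no label states which library came from which sex.

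Dopamine receptors form 2 classes. D1-like receptors, encoded by Drd1 and Drd5, couple to stimulatory G proteins and raise cyclic AMP, whereas D2-like receptors, encoded by Drd2, Drd3 and Drd4, couple to inhibitory G proteins and lower it. Adenosine receptors divide in the same way: A1, encoded by Adora1, lowers cyclic AMP, and A2A and A2B, encoded by Adora2a and Adora2b, raise it. The striatum is the brain region with the most Drd1, Drd2 and Adora2a. Its medium spiny neurons of the direct pathway express Drd1 and the neuropeptide gene Tac1, and those of the indirect pathway express Drd2, Adora2a and the enkephalin gene Penk. The cortex has far less of these receptors, and A1 is the widespread adenosine receptor of the brain.

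For 3 of the genes the sequence just upstream of the transcription start is shown, since their levels followed different patterns across these libraries: Drd1 and Drd2 were highest in the 8 libraries with the most striatal marker RNA, and Adora1 was not. The sequences are those of RefSeq, build GRCm38.p6, read 5′ to 3′ on the strand of the gene, and capitals mark the GC box, GGGCGG or its reverse complement CCGCCC. The Drd1 stretch is chr13:54055706-54055908 on the minus strand, the Drd2 stretch chr9:49340153-49340402 on the plus strand and the Adora1 stretch chr1:134235458-134235707 on the minus strand.
Drd1: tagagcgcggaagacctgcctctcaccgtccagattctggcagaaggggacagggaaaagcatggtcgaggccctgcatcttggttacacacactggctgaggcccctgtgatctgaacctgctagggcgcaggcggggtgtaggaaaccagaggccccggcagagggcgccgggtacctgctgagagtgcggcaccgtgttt
Drd2: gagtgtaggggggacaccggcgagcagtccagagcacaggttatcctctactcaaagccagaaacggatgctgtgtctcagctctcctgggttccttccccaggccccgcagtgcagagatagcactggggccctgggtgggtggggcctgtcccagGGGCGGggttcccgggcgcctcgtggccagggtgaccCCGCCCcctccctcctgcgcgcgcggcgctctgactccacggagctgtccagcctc
Adora1: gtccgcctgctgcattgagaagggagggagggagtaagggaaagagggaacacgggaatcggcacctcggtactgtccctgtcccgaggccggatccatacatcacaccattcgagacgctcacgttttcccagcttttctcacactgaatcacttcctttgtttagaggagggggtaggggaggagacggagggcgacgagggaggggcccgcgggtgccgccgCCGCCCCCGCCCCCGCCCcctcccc
Within the 250 bases upstream of these starts, Drd1 held 0 GC boxes, Drd2 held 2 and Adora1 held 3, counted on both strands. Of the Drd1 window, chr13:54055659-54055908, only the 203 bases outside the annotated gene are printed, and the count covers the whole window. A second start of Drd1 held 1 and a second start of Adora1 held 0. Of the 32851 windows of this length in the RefSeq table, 32.7% held a GC box. The other motifs searched on both strands were TATAAA, TGACGTCA and CCAAT, held by 12.4%, 1.55% and 33.9% of all windows, and no window of Drd1, Drd2 or Adora1 contained one. Windows were found for 7 of the 8 genes, and Adora2a was not matched. A match describes the letters only.

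The total count per library was 8838334 to 227651681, with the shallowest being WT replicate 4, and about 3 deposited counts stood for 1 sequenced fragment. Chga, the check of the genotype, was at 162 ± 11.9 CPM in WT (mean ± SD, n = 5), 168 ± 6.68 CPM in PS19 (n = 6) and 0 counts in every CgA-KO/PS19 library, which allows up to 0.260 CPM in the shallowest of them. CPM is the count scaled to a common library size (TMM), and the limit stands for 3 fragments, or 9 counts, and covers counting error only. Markers of cortical glutamatergic neurons were present in every library, with a summed level of 989 to 2446 CPM over 8 genes. PS19 replicates 4, 5 and 6 were nearly the same, with a robust SD of their log2 ratios across genes of 0.0523 to 0.0607, as were CgA-KO/PS19 replicates 1 and 3 (0.0980), against 0.146 or more for the other pairs within a genotype. They are counted as separate samples unless stated. The Y-linked gene Ddx3y exceeded 1 CPM in replicates 1 to 3 of WT, of PS19 and of CgA-KO/PS19 and did not exceed 0.0582 CPM in any other library. The mitochondrial share of counts was 13.8% to 18.2% in CgA-KO/PS19 replicates 1 to 3, 3.84% to 10.9% in replicates 4 to 6, and 2.56% to 7.94% in WT and PS19.

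**Figure D1:**
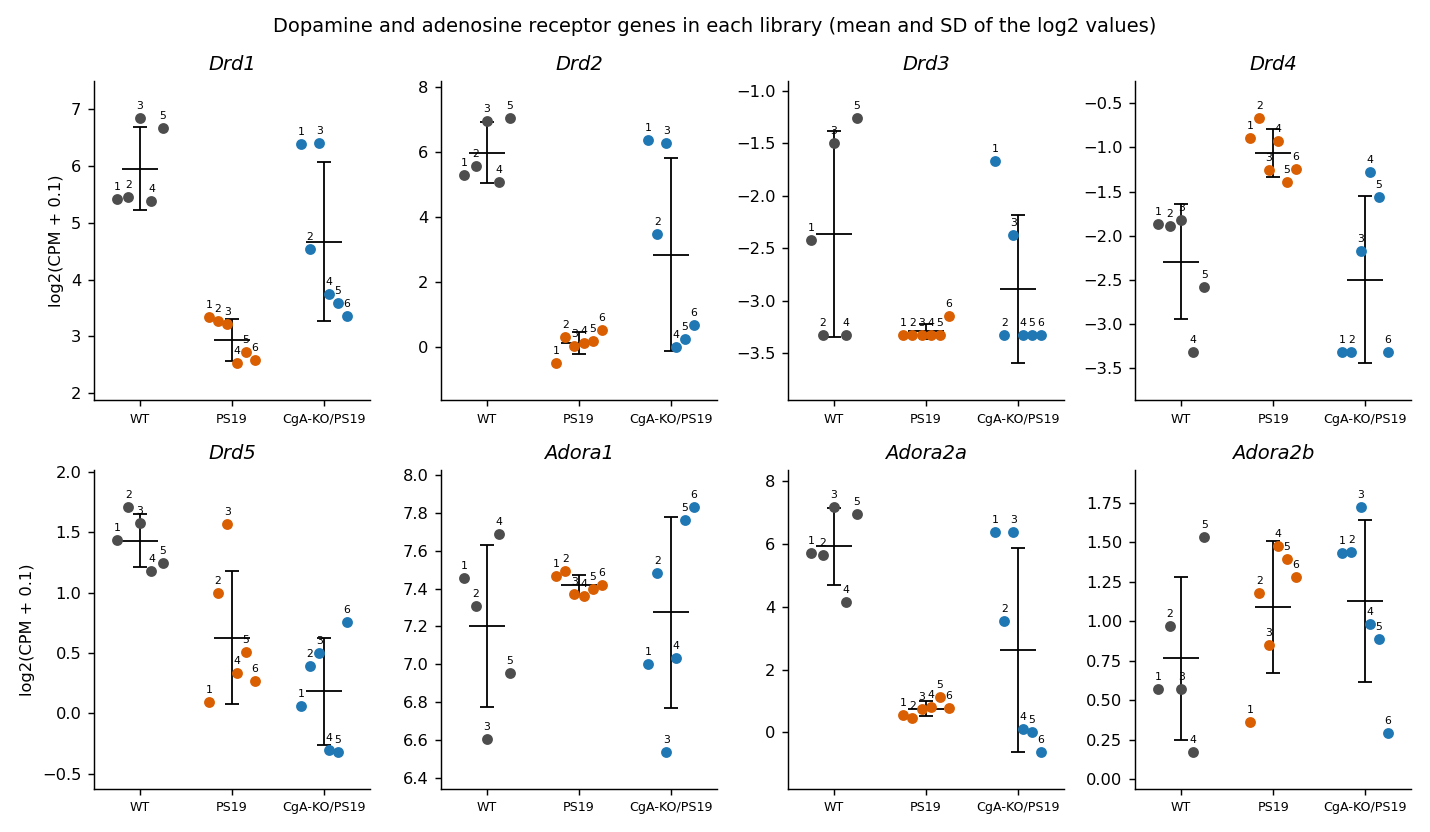
Level of each receptor gene in every library as log2(CPM + 0.1), by genotype (n = 5, 6 and 6); points are libraries with their replicate number, and black bars are the mean and SD of the log2 values. Drd1, Drd2 and Adora2a were higher in all 5 WT libraries than in any PS19 library, and CgA-KO/PS19 replicates 1 to 3 lay above replicates 4 to 6 for these 3 genes.

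Drd1 encodes the main D1-like receptor and lies at chr13:54051183-54055705 (minus strand, GRCm38). In WT replicates 1 to 5 it was at 42.8, 43.9, 115, 41.6 and 102 CPM. In PS19 replicates 1 to 6 it was at 10.0, 9.54, 9.23, 5.66, 6.52 and 5.89 CPM. In CgA-KO/PS19 replicates 1 to 6 it was at 83.7, 23.0, 84.8, 13.3, 11.9 and 10.1 CPM. All WT libraries lay above all PS19 libraries, and so did all CgA-KO/PS19 libraries, although replicate 6 of the latter exceeded the highest PS19 library only narrowly. Replicates 4 to 6 of CgA-KO/PS19 were below every WT library.

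The difference in Drd1 between WT and PS19 was 3.15 ± 0.55 on the log2 scale (SE; adjusted p = 0.00233, edgeR's quasi-likelihood test, adjusted by Benjamini-Hochberg for 23062 genes). Between CgA-KO/PS19 and PS19 it was 2.28 ± 0.52 (4.86-fold; adjusted p = 0.0139 in edgeR). CgA-KO/PS19 against WT gave -0.87 ± 0.52 (adjusted p = 0.355 in edgeR), and the libraries overlapped.

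Drd2, the main inhibitory dopamine receptor gene (chr9:49340627-49408177, plus strand), separated WT from PS19 as well. Its level in WT was 38.9, 46.8, 122, 33.4 and 132 CPM in replicates 1 to 5. In PS19 it was 0.601, 1.13, 0.912, 0.989, 1.04 and 1.31 CPM in replicates 1 to 6. The CgA-KO/PS19 replicates 1 to 6 held 83.0, 10.9, 76.9, 0.889, 1.09 and 1.47 CPM. Thus the first 3 CgA-KO/PS19 libraries were above every PS19 library, whereas the values of the others fell in or just above the PS19 range.

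The test gave a log2 difference of 6.21 ± 1.09 between WT and PS19 (adjusted p = 0.00246 in edgeR). For CgA-KO/PS19 against PS19 it gave 4.85 ± 1.02 (28.8-fold; adjusted p = 0.00928 in edgeR), with overlapping libraries. The value of CgA-KO/PS19 against WT was -1.36 ± 0.90 (adjusted p = 0.414 in edgeR).

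Adora2a encodes the A2A receptor, which indirect pathway neurons carry together with the D2 receptor, and lies at chr10:75316877-75334784 (plus strand). WT replicates 1 to 5 held 52.0, 49.8, 146, 17.6 and 123 CPM, and PS19 replicates 1 to 6 held 1.37, 1.28, 1.57, 1.67, 2.10 and 1.62 CPM. The levels in CgA-KO/PS19 replicates 1 to 6 were 82.9, 11.5, 83.6, 0.969, 0.903 and 0.549 CPM. As for Drd2, replicates 1 to 3 of CgA-KO/PS19 were above all PS19 libraries, and here replicates 4 to 6 were below all of them.

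On the log2 scale Adora2a differed by 5.60 ± 1.13 between WT and PS19 (adjusted p = 0.00620 in edgeR) and by 4.23 ± 1.05 between CgA-KO/PS19 and PS19 (18.8-fold; adjusted p = 0.0203 in edgeR). CgA-KO/PS19 against WT gave -1.37 ± 0.96 (adjusted p = 0.443 in edgeR).

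Of the 7 receptor genes tested, then, 3 were called higher in WT than in PS19, where 3.95% of all genes were, and the libraries of these 3 genes did not overlap, as was so for 4.39% of genes. In CgA-KO/PS19 against PS19 the same 3 genes were called higher, against 5.5% of all genes, and for Drd1 alone did the libraries not overlap (2.84% of genes). Both comparisons share the PS19 libraries. With each library left out in turn, the 3 genes stayed called in both comparisons, with adjusted p-values of up to 0.0195 against WT and up to 0.0495 in CgA-KO/PS19 against PS19 (edgeR). With PS19 replicates 4 to 6 averaged to 1 sample and CgA-KO/PS19 replicates 1 and 3 likewise, no receptor gene was called in CgA-KO/PS19 against PS19 by edgeR (Drd1 1.72, adjusted p = 0.154; Drd2 4.27, adjusted p = 0.111; Adora2a 3.70, adjusted p = 0.158), although 3 had an unadjusted p under 0.05. In WT against PS19, Adora2a then had an adjusted p of 0.0526 in edgeR.

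**Figure D2:**
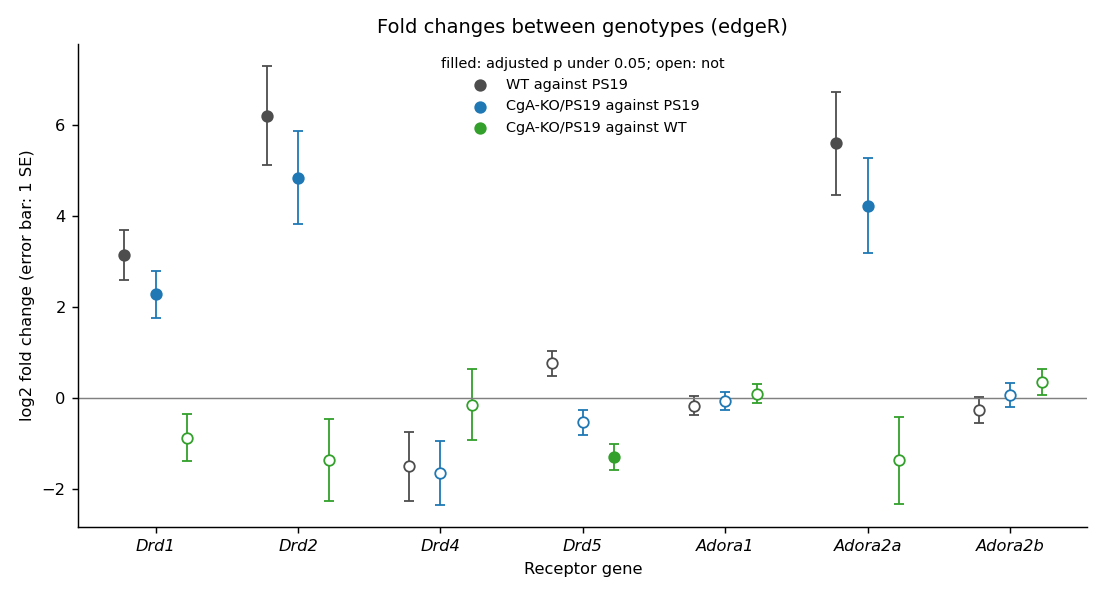
Log2 fold change of the 7 receptor genes tested, in each comparison of genotypes (5 WT, 6 PS19 and 6 CgA-KO/PS19 libraries); error bars are 1 SE, and filled points have an adjusted p under 0.05 in edgeR. Drd1, Drd2 and Adora2a stood at 2.28 to 6.21 in both comparisons with PS19, and Drd5 was the gene called in CgA-KO/PS19 against WT, at -1.30.

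Drd5 encodes the other D1-like receptor, has a single exon and lies at chr5:38319367-38322518 (plus strand). It was at 2.60, 3.18, 2.89, 2.17 and 2.28 CPM in WT replicates 1 to 5. In PS19 replicates 1 to 6 it was at 0.965, 1.89, 2.86, 1.16, 1.33 and 1.10 CPM. In CgA-KO/PS19 it was at 0.945, 1.21, 1.31, 0.711, 0.701 and 1.59 CPM. Every CgA-KO/PS19 library was below every WT library, and PS19 spanned both ranges.

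Among the receptor genes, Drd5 was the one called in CgA-KO/PS19 against WT, at -1.30 ± 0.29 on the log2 scale (2.46-fold lower; adjusted p = 0.0125 in edgeR), where 2.89% of all genes were called lower and 1.54% had libraries that were all lower. This call was kept with each library left out (-1.43 to -1.19, adjusted p up to 0.0324 in edgeR). It was lost in the libraries with Ddx3y at most 1 CPM (-1.18, adjusted p = 0.186 in edgeR). WT against PS19 gave 0.76 ± 0.28 (adjusted p = 0.123 in edgeR), and without PS19 replicate 3, the highest of its group, 1.03 (adjusted p = 0.0256 in edgeR). CgA-KO/PS19 against PS19 gave -0.54 ± 0.27 (adjusted p = 0.205 in edgeR). Drd5 shares 1531 exon bases with the antisense gene Gm26560, which was at no more than 0.326 CPM in any library, and whether the counting used strand is not given in the sources used here.

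Drd3 and Drd4, the other D2-like receptor genes, were near the limit of detection. Drd3 (chr16:43754026-43822932) had 3, 0, 50, 0 and 33 deposited counts in WT replicates 1 to 5, 0, 0, 0, 0, 0 and 3 in PS19 replicates 1 to 6, and 12, 0, 17, 0, 0 and 0 in CgA-KO/PS19 replicates 1 to 6. The 4 libraries over the limit of 9 counts were WT replicates 3 and 5 and CgA-KO/PS19 replicates 1 and 3, which were also the libraries with the most Drd1, Drd2 and Adora2a. A count of 0 allows 0.0489 to 0.164 CPM in the PS19 libraries that had none. Drd3 was left out of the fit by the filter on low counts. By a two-sided exact permutation test of log2(CPM + 0.1), WT against PS19 differed by 0.93 (p = 0.121, adjusted p = 0.364 over 3 tests, where the smallest p possible was 0.00433), and the other comparisons had adjusted p-values of 0.455. Drd3 was called in WT against PS19 when no filter was applied (fitted log2 difference 5.15, adjusted p = 0.0454 in edgeR), and DESeq2 gave an adjusted p of 0.0524. With 1 PS19 library above 0 counts, the fitted size is no bound.

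Drd4 (chr7:141292006-141296464) was at 0.174, 0.169, 0.184, 0 and 0.0676 CPM in WT replicates 1 to 5. PS19 replicates 1 to 6 held 0.437, 0.531, 0.320, 0.427, 0.281 and 0.321 CPM, and CgA-KO/PS19 held 0, 0, 0.121, 0.311, 0.240 and 0 CPM. All WT libraries were below all PS19 libraries, but the 0 of the shallow WT replicate 4 allows up to 1.03 CPM, more than any PS19 library held. In the fit Drd4 differed by -1.51 ± 0.76 in WT against PS19 (adjusted p = 0.268 in edgeR) and by -1.65 ± 0.70 in CgA-KO/PS19 against PS19 (adjusted p = 0.131 in edgeR). Without CgA-KO/PS19 replicate 4 the latter was -2.25 (adjusted p = 0.0419 in edgeR). In a fit to the WT and PS19 libraries alone, WT against PS19 was -1.47 (adjusted p = 0.0306 in edgeR). CgA-KO/PS19 and WT had -0.15 ± 0.78 (adjusted p = 0.943 in edgeR).

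Adora1, the gene of the A1 receptor (chr1:134199223-134235431, minus strand), was the most abundant of the 8 genes in PS19. It was at 175, 158, 97.3, 206 and 124 CPM in WT replicates 1 to 5. PS19 replicates 1 to 6 held 177, 180, 165, 164, 169 and 171 CPM, a range of 1.10-fold. CgA-KO/PS19 replicates 1 to 6 held 128, 179, 92.8, 131, 217 and 228 CPM. The genotypes overlapped, and the lowest library of WT and that of CgA-KO/PS19, replicate 3 in each, were those with the most Drd1 and Adora2a of their genotype.

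The log2 differences of Adora1 were -0.17 ± 0.21 in WT against PS19, -0.07 ± 0.20 in CgA-KO/PS19 against PS19 and 0.10 ± 0.21 in CgA-KO/PS19 against WT (adjusted p = 0.693, 0.848 and 0.843 in edgeR). Adora1 shares 1162 exon bases with Mybph on the other strand, which was at no more than 0.203 CPM.

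Adora2b, which encodes the low-affinity A2B receptor (chr11:62248984-62266453, plus strand), was at 1.39, 1.86, 1.39, 1.03 and 2.80 CPM in WT, at 1.18, 2.16, 1.70, 2.69, 2.54 and 2.33 CPM in PS19 and at 2.60, 2.61, 3.21, 1.88, 1.75 and 1.13 CPM in CgA-KO/PS19. The 3 ranges overlapped, and within CgA-KO/PS19 replicates 1 to 3 were above replicates 4 to 6, as for Drd2. The log2 differences were -0.27 ± 0.29, 0.07 ± 0.27 and 0.34 ± 0.29 in the comparisons in the same order (adjusted p = 0.630, 0.899 and 0.540 in edgeR).

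Levels can be set against each other per length of exon, in CPM per kb. In WT the highest means were those of Drd2 (29.3 CPM per kb), Adora1 (26.3), Adora2a (25.4) and Drd1 (19.0), and the order of these neighbours was not the same in every library, with Drd2 above Adora1 in 2 of 5. Adora2b (0.917) and Drd5 (0.832) followed far below, Adora2b being the higher in 1 of 5 libraries, and Drd3 (0.0772) and Drd4 (0.0351) were lowest.

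In PS19, Adora1 (29.6 CPM per kb) was above Drd1 (2.15), Drd1 above Adora2b (1.14) and Adora2b above Adora2a (0.523) in 6 of 6 libraries. Adora2a was above Drd5 (0.492) in 4 of 6, and Drd5 above Drd2 (0.392) in 4 of 6. The order of these 3 genes was thus not the same in every library, and their differences were not tested. In CgA-KO/PS19 Adora1 (28.1) was above Drd2 (11.4) in 4 of 6 libraries. Drd2, Drd1 (10.4) and Adora2a (9.82) had no fixed order there.

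The proportions of the receptor genes within a library were compared by two-sided exact permutation tests of log2 ratios (CPM + 0.1 in each part), with Benjamini-Hochberg adjustment over 15 tests. The log2 ratio of Drd1 to Drd2 was -0.02 ± 0.26 (SD, n = 5) in WT and 2.84 ± 0.64 (SD, n = 6) in PS19, with no overlap (exact permutation p = 0.00433, the smallest possible, adjusted p = 0.0108). In CgA-KO/PS19 it was 0.01, 1.08 and 0.14 in replicates 1 to 3 and 3.76, 3.34 and 2.702 in replicates 4 to 6. The first 3 were thus nearer to the WT values and the last 3 within the PS19 range of 2.08 to 3.85. In PS19 and in CgA-KO/PS19 replicates 4 to 6, Drd1 kept 5.66 to 13.3 CPM and Drd2 0.601 to 1.47 CPM. Where Drd1 keeps more than Drd2, their ratio can rise when striatal RNA is low. This test thus cannot tell a change within striatal cells from less striatal RNA in a library.

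Adora2a and Drd2 stayed closer to each other, with a log2 ratio of 0.65 ± 0.36 in PS19, -0.05 ± 0.52 in WT and -0.20 ± 0.54 in CgA-KO/PS19 (SD). Every CgA-KO/PS19 library (at most 0.12) was below every PS19 library (at least 0.16) in this ratio (exact permutation p = 0.00217, the smallest possible, adjusted p = 0.0108). WT against PS19 gave -0.70 with overlap (exact permutation p = 0.0260, adjusted p = 0.0413), and passed in 4 of 13 alternative settings. CgA-KO/PS19 and WT differed by -0.15 (exact permutation p = 0.619, adjusted p = 0.663). Both genes were near 1 CPM in the PS19 libraries and in CgA-KO/PS19 replicates 4 to 6, so the ratio there rests on few fragments.

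**Figure D3:**
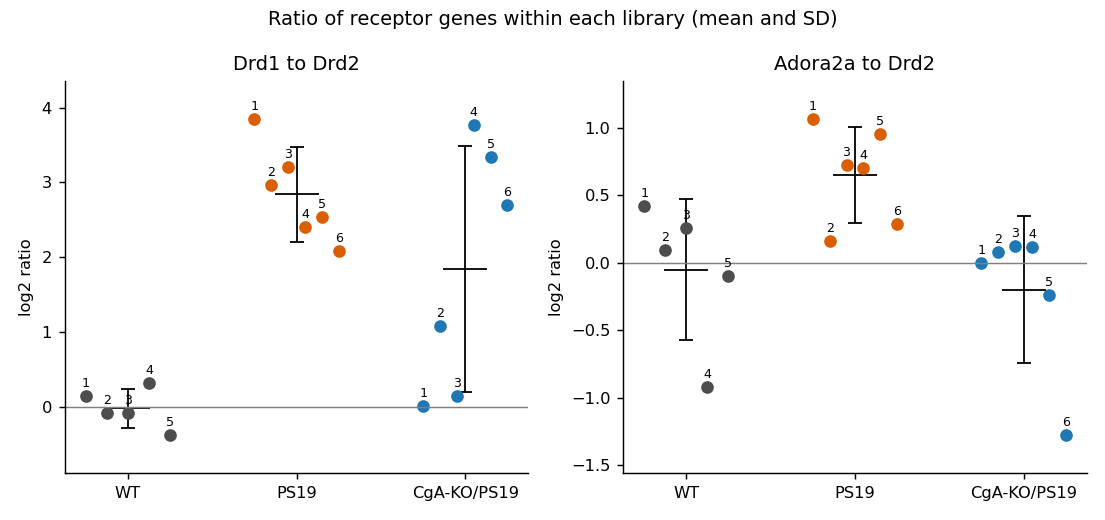
Log2 ratio of Drd1 to Drd2 and of Adora2a to Drd2 within each library, by genotype (n = 5, 6 and 6), with the replicate number beside each point and the mean and SD in black. The Drd1 to Drd2 ratio lay between -0.38 and 0.32 in WT and between 2.08 and 3.85 in PS19, and CgA-KO/PS19 libraries lay in both ranges or between them.

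Markers of striatal medium spiny neurons differed between the same libraries as Drd2 and Adora2a. The list of 16 markers, which holds none of the receptor genes, summed to 1604 to 5288 CPM in WT and to 914 to 1111 CPM in PS19. The sum in CgA-KO/PS19 was 3913, 1133 and 3952 CPM in replicates 1 to 3 and 861, 843 and 787 CPM in replicates 4 to 6. The last 3 were below every PS19 library in this sum, although their Drd1 was above every PS19 library. Of the 16, 11 were called higher in WT than in PS19 (median log2 difference 2.08, against -0.01 over all genes) and 6 in CgA-KO/PS19 than in PS19 (1.64, against 0.03). Over all genes, 3.95% and 5.5% were called higher in these comparisons. None of the 16 was at 0 in all libraries of a genotype. Gnal, the G protein that couples striatal D1 and A2A receptors to adenylyl cyclase, was the most abundant, at 443 ± 100.3 CPM in WT and 214 ± 15.6 CPM in PS19 (SD; log2 difference 1.05 ± 0.23 SE, adjusted p = 0.00926 in edgeR). Adcy5, the adenylyl cyclase of the striatum, and Scn4b, a sodium channel subunit, followed in abundance and gave 1.49 and 1.08 (adjusted p = 0.0942 and 0.253 in edgeR).

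The partners of the 2 striatal output pathways are given in full. All 5 indirect pathway genes were called higher in WT than in PS19 (median log2 difference 3.99), namely Penk at 3.99, the orphan receptor genes Gpr6 and Gpr52 at 4.28 and 2.52, and the transcription factor genes Six3 and Sp9 at 8.26 and 1.67. CgA-KO/PS19 against PS19 called 4 of them, Penk at 2.10, Gpr6 at 2.79, Gpr52 at 1.54 and Six3 at 6.99, and Sp9 was at 0.57 (adjusted p = 0.118 in edgeR). Over all genes, 3.95% were called higher in WT against PS19 and 5.5% in CgA-KO/PS19 against PS19. The list summed to 354 to 908 CPM in WT, 34.9 to 49.97 CPM in PS19, and 382, 120 and 370 CPM in CgA-KO/PS19 replicates 1 to 3 against 40.7, 52.0 and 58.1 CPM in replicates 4 to 6. This is the same division of the libraries as for Drd2 and Adora2a.

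Of the 6 direct pathway genes, 3 were called higher in WT than in PS19: Tac1 at 2.11, Ebf1 at 1.52, and Isl1, a transcription factor gene that had 0 counts in every PS19 library and a mean of 2.87 CPM in WT. Pdyn, which encodes dynorphin, Chrm4, a muscarinic receptor gene, and Eya1 gave 0.37, 0.12 and 0.54 and were not called. Isl1 and Ebf1 (0.86) were called in CgA-KO/PS19 against PS19 and Tac1 (1.29, adjusted p = 0.0921 in edgeR) was not. In CgA-KO/PS19 against WT, Pdyn of this list was lower (-0.90, adjusted p = 0.00695 in edgeR), and Penk (-1.89, adjusted p = 0.0375) and Sp9 (-1.11, adjusted p = 0.0114) of the indirect list were lower. Of all genes, 3.95% were called higher in WT against PS19 and 5.5% in CgA-KO/PS19 against PS19. In CgA-KO/PS19 against WT, 2.89% were called lower.

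With the striatal marker score of each library as a covariate, the differences of the 3 receptor genes were smaller. In WT against PS19, Drd1 was then at 1.01 ± 0.20 (adjusted p = 0.00390 in edgeR), Drd2 at 2.29 ± 0.46 (adjusted p = 0.00429) and Adora2a at 1.15 ± 0.49 (adjusted p = 0.118), in a fit that called 10.4% of all genes higher. The values in CgA-KO/PS19 against PS19 were 0.82 ± 0.15, 1.298 ± 0.39 and 0.31 ± 0.40 (adjusted p = 0.00575, 0.0445 and 0.638 in edgeR), with 5.34% of genes called higher. Adora2a was thus no longer called in either comparison. The PS19 scores (-0.98 to -0.84) and WT scores (0.14 to 2.09) did not overlap, and no CgA-KO/PS19 score lay within the PS19 range. In both comparisons with PS19, the values with the covariate thus extend a fitted slope across scores that the genotypes did not share. Those values do not compare libraries of equal score. Of CgA-KO/PS19, replicates 1 and 3 (1.73 each) lay within the WT range and the others below it. Drd5 in CgA-KO/PS19 against WT remained at -1.24 ± 0.34 (adjusted p = 0.0159 in edgeR; 11.1% of genes called lower). In bulk tissue, fewer cells of a type and less RNA per cell cannot be told apart, and the score covers only the genes listed.

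**Figure D4:**
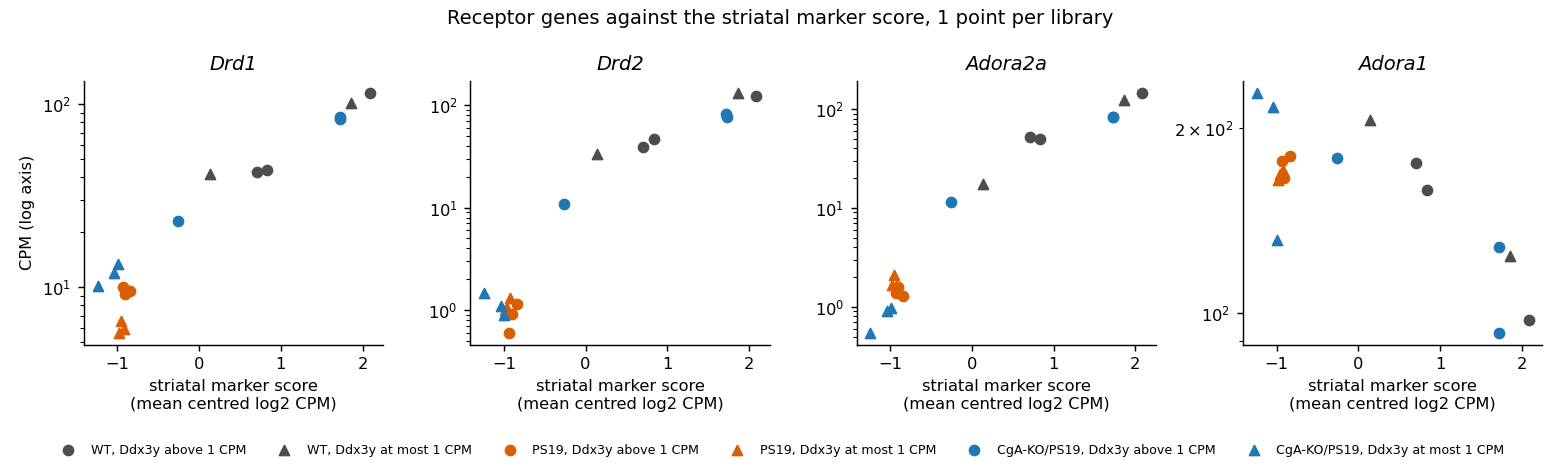
CPM (log axis) of Drd1, Drd2, Adora2a and Adora1 against the striatal marker score of each library, the mean of centred log2 levels of 16 markers; circles are libraries with Ddx3y above 1 CPM and triangles the others. The PS19 libraries and CgA-KO/PS19 replicates 4 to 6 sit at scores of -1.24 to -0.84 with low Drd2 and Adora2a, and the libraries with the highest scores, up to 2.09, have the most Drd1, Drd2 and Adora2a.

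Relative to the striatal list itself, the receptor genes did not keep one proportion. In PS19 the most abundant list genes, Gnal, Adcy5 and Scn4b, kept 214, 129 and 168 CPM. Sh3rf2 and Syndig1l, also on the list, were at 0.577 and 1.92 CPM. Where some markers keep such levels, the ratio of a gene near 1 CPM falls whenever striatal markers are low. These ratio tests thus cannot tell a change within striatal cells from less striatal RNA in a library. The log2 ratio of Drd1 to the mean log2 level of the list was -0.48 ± 0.27 in WT, -0.51 ± 0.13 in CgA-KO/PS19 and -1.17 ± 0.32 in PS19 (SD), and both differences from PS19 had no overlap (adjusted p = 0.0108 each by the exact permutation test). Drd2 was at -0.46 ± 0.22 in WT and -4.01 ± 0.36 in PS19 (difference 3.55, adjusted p = 0.0108 by the same exact test), and Adora2a at -0.51 ± 0.43 and -3.36 ± 0.29 (difference 2.85, adjusted p = 0.0108). In CgA-KO/PS19 Drd2 was at -2.35 ± 1.53, which overlapped PS19 (difference 1.66, adjusted p = 0.0413 by the exact test) and differed from WT by -1.89 (adjusted p = 0.0186). Adora2a was at -2.55 ± 1.79 there, with differences of 0.81 from PS19 (adjusted p = 0.292 by the exact test) and -2.04 from WT (adjusted p = 0.0413). Under alternative settings, the Drd2 difference from PS19 passed in 5 of 14 (adjusted p up to 0.0767 by the exact test). The Adora2a difference from WT passed in 5 of 13 (up to 0.0857), and the Drd2 difference from WT in 13 of 13.

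The libraries of each genotype with Ddx3y above 1 CPM and the rest were then fitted separately, a division chosen after the data had been seen. All PS19 libraries without Ddx3y were the nearly identical replicates 4 to 6. The CgA-KO/PS19 libraries with Ddx3y included the nearly identical replicates 1 and 3. These fits were not repeated with such libraries averaged, so their p-values hold only if the libraries are separate samples. The 3 libraries of each genotype with Ddx3y gave, for CgA-KO/PS19 against PS19, 2.75 for Drd1, 5.99 for Drd2 and 5.41 for Adora2a (adjusted p = 0.00519, 0.00140 and 0.00168 in edgeR), where 14.9% of all genes were called higher. Adora2b (0.75, adjusted p = 0.0450) and Drd4 (-2.92, adjusted p = 0.0330) passed the edgeR test there too. In either direction, this fit called 6713 of 21613 genes. Drd4 had 0, 0 and 22 counts in CgA-KO/PS19 replicates 1 to 3, where the limit is 9 counts. The 3 libraries without Ddx3y in each of CgA-KO/PS19 and PS19 gave 0.95, -0.01 and -1.13 for Drd1, Drd2 and Adora2a (adjusted p = 0.243, 0.996 and 0.444 in edgeR). No receptor gene was called there, against 0.543% of all genes called higher, and 1 receptor gene had an unadjusted p under 0.05. The difference between both sets was itself past the test for Drd2 (5.98, adjusted p = 0.00237), Adora2a (6.50, adjusted p = 0.00219) and Adora2b (1.39, adjusted p = 0.0486) in edgeR, as for 11.7% of genes, and not for Drd1 (1.76, adjusted p = 0.0893).

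In WT against PS19 the same division gave like values, but only replicates 4 and 5 of WT were without Ddx3y. Replicate 4 was the shallowest library, and replicate 5 had a choroid plexus marker sum of 1099 CPM. The PS19 libraries set against them were the nearly identical replicates 4 to 6. The libraries with Ddx3y gave 2.82, 6.26 and 5.87 for Drd1, Drd2 and Adora2a (adjusted p = 0.0591, 0.0308 and 0.0308 in edgeR; 0.453% of genes called higher), and those without gave 3.56, 6.20 and 5.29 (adjusted p = 0.00245, 0.00204 and 0.00743; 2.94% of genes called higher). The differences between these sets were -0.77, 0.04 and 0.56 (adjusted p = 0.688, 0.995 and 0.865 in edgeR). Within CgA-KO/PS19 the replicates with Ddx3y are those with more mitochondrial counts, and sex, striatal markers and mitochondrial share cannot be told apart there. Oligodendrocyte markers (6 genes) summed to 2744, 2387 and 2756 CPM in replicates 1 to 3 and to 1461, 1391 and 1513 CPM in replicates 4 to 6 of CgA-KO/PS19. Astrocyte markers (6 genes) summed to 5267, 3798 and 6019 CPM against 3189, 1041 and 1106 CPM. Within CgA-KO/PS19 both lists were thus higher in the libraries with more Drd2 and Adora2a. This did not hold between WT and PS19. Oligodendrocyte sums were 1047 to 1623 CPM in WT and 1107 to 1592 CPM in PS19. Astrocyte sums were 1010 to 3383 CPM in WT and 929 to 4777 CPM in PS19. The part of both lists in the receptor differences was not tested.

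**Figure D5:**
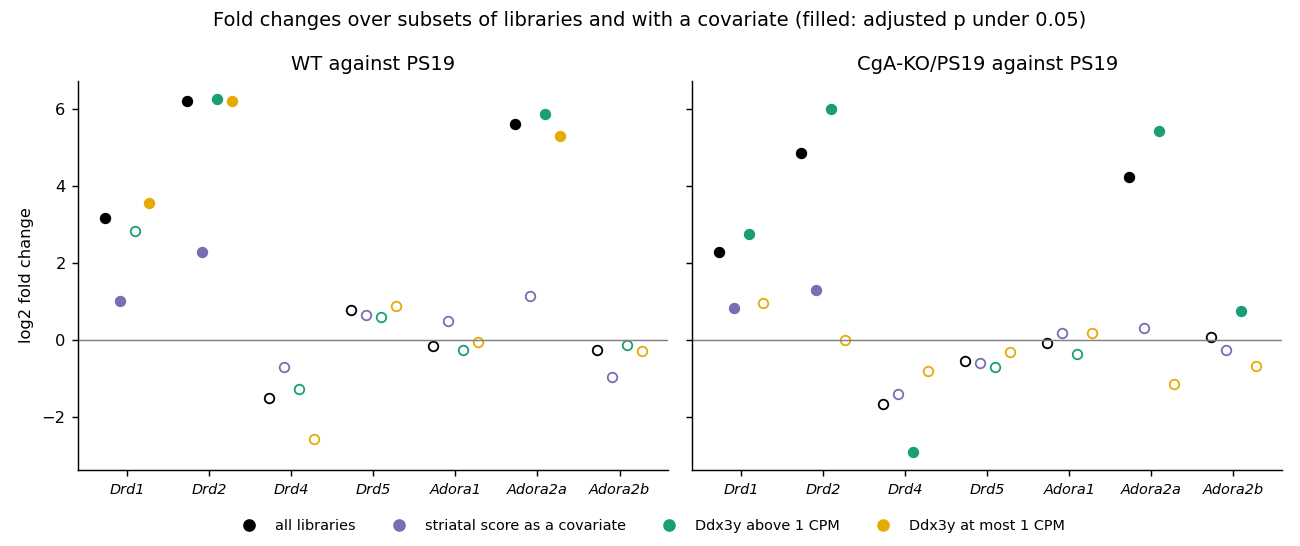
Log2 fold change of the 7 receptor genes tested in WT against PS19 and CgA-KO/PS19 against PS19, over all libraries, with the striatal marker score as a covariate, and over the libraries with Ddx3y above or at most 1 CPM; filled points have an adjusted p under 0.05 in edgeR. In CgA-KO/PS19 against PS19, Drd2 was at 5.99 in the libraries with Ddx3y and -0.01 in those without, and Adora2a at 5.41 and -1.13.

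The genes whose log2(CPM + 1) followed each receptor gene most closely over the 17 libraries, among 15468 genes of at least 1 CPM on average, are given as a description; all libraries share the differences in striatal markers. For Drd1 they included Cd4 and Rgs9 (Pearson r of 0.988 and 0.984). Those of Drd2 were Sh3rf2, Slc35d3 and Rgs9 (0.986, 0.983 and 0.983), and those of Adora2a were Rgs9, Syndig1l and Tac1 (0.987, 0.983 and 0.977). Rgs9, a striatal regulator of G protein signalling, was thus among the 3 closest genes of each, and after centring on the genotype means its r was 0.985, 0.964 and 0.971. Among themselves the 3 receptor genes had r = 0.974 for Drd1 with Drd2, 0.958 for Drd1 with Adora2a and 0.988 for Drd2 with Adora2a.

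Adora1 went with Dvl3, Fabp3 and Snap25 (r = 0.927, 0.889 and 0.885), the last a gene of the synaptic release machinery, and against Drd1 at -0.648 and Adora2a at -0.664. Drd5 was closest to Htr2a, a cortical serotonin receptor gene, to Rspo2 and to Man1a (0.889, 0.857 and 0.836). Adora2b was closest to Slco1c1, a transporter gene of brain vessels and astrocytes, to Psd2 and to Tril (0.903, 0.895 and 0.878). Drd4, at its very low level, was closest to Borcs5, Pgk1-rs7 and Gm5537 (0.961, 0.959 and 0.957).

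Genes that make, carry and clear dopamine had median log2 differences of 0.35 in WT against PS19 and 0.27 in CgA-KO/PS19 against PS19 (-0.01 and 0.03 over all genes). None of the 8 tested of 10 on this list was called in any comparison by edgeR, where 2, 1 and 1 had an unadjusted p under 0.05 in WT against PS19, CgA-KO/PS19 against PS19 and CgA-KO/PS19 against WT; DESeq2 called 1 in each, and limma 2, 2 and 0. Maoa and Maob, which encode monoamine oxidases, were at 34.1 and 21.2 CPM in WT, 34.9 and 19.4 CPM in PS19 and 35.0 and 26.1 CPM in the double mutants. Slc6a3, the dopamine transporter gene and a marker of midbrain dopamine neurons, was at a mean of no more than 0.295 CPM in any genotype.

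Downstream of the receptors, 6 of 32 signalling genes were higher in WT than in PS19 and none lower (median 0.12, against -0.01 over all genes), where 3.95% of all genes were called higher and 1.95% lower. Named after their values were seen, these were Gnal, Ppp1r1b, Pde10a and Rgs9, which are on the striatal list too, and Pde1b and Caly. When CgA-KO/PS19 was set against PS19, 2 were higher (Rgs9 and Prkar2b) and 1 lower (Prkar1b), with a median of 0.03, where 5.5% of all genes were called higher and 4.22% lower. In edgeR this is near the share over all genes. Of the 32, 15 had an unadjusted p under 0.05 in edgeR. DESeq2 and limma called 7 each, where they called 3958 and 5229 of all genes. The most abundant were Ppp1r9b, which encodes the scaffold spinophilin, and the protein kinase A subunit genes Prkar1a and Prkar1b. In WT against PS19 they were at -0.25, -0.04 and -0.27 (adjusted p = 0.496, 0.900 and 0.243 in edgeR). Their differences between CgA-KO/PS19 and PS19 were 0.42, -0.22 and -0.50 (adjusted p = 0.139, 0.215 and 0.0205 in edgeR). Ppp1r9b rose by 0.67 from WT to CgA-KO/PS19 (adjusted p = 0.0451), and of the list 1 was higher and 1 lower.

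Of 18 genes tested of the 20 that form, move or break down adenosine, 2 were called higher and 1 called lower when WT was compared with PS19 (3.95% and 1.95% of all genes). Named after their values were seen, Nt5e, the ecto-enzyme that makes adenosine from AMP, was at 1.41, the transporter gene Slc29a4 at 1.91 and Dpp4, whose product binds adenosine deaminase, at -1.14 (adjusted p = 0.0105, 0.0185 and 0.0395 in edgeR). Between CgA-KO/PS19 and PS19, edgeR called none, 5 had an unadjusted p under 0.05, DESeq2 called 2 and limma 3. Against WT, 1 was lower in CgA-KO/PS19. Nt5c2, Adk and Ahcy, the most abundant of the list, gave -0.16, -0.28 and -0.00 in WT against PS19 (adjusted p = 0.366, 0.0761 and 0.995 in edgeR). Adk encodes the kinase that clears adenosine, and it was at 37.1 ± 3.55 CPM in WT, 45.1 ± 1.89 CPM in PS19 and 45.7 ± 4.94 CPM in the double mutants (SD).

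Other cell type markers were counted beside the receptors. In WT against PS19, 4 of 6 cholinergic and basal forebrain genes tested and 4 of 6 choroid plexus genes were higher, and 2 of 8 cortical glutamatergic genes, 1 of 6 astrocyte genes and the 1 tested midbrain dopamine neuron gene, Aldh1a1, were lower, where 3.95% of all genes were called higher and 1.95% lower. In CgA-KO/PS19 against PS19, 1 cholinergic, 1 choroid plexus, 2 astrocyte and 1 oligodendrocyte gene were higher and 1 cortical gene was lower (5.5% and 4.22% of all genes). Against WT, 2 oligodendrocyte genes and Aldh1a1 were higher in CgA-KO/PS19, and 1 cholinergic and 3 choroid plexus genes were lower (3.56% and 2.89% of all genes). Lhx8, a transcription factor gene of forebrain cholinergic neurons, had 0 counts in every PS19 library. The choroid plexus sum was 13.7 to 18.05 CPM in the other WT libraries and 1099 CPM in WT replicate 5, one of the 2 WT libraries with the most Drd1 and Drd2. Without that library, WT against PS19 stayed called for Drd1, Drd2 and Adora2a. For microglia and endothelial cells edgeR called none of 6 genes in any comparison, with 0 to 2 at an unadjusted p under 0.05; DESeq2 called none and limma 0 to 2. Microglial markers summed to 188 to 209 CPM in WT, 174 to 229 CPM in PS19 and 125 to 197 CPM in the double mutants. The part of these cells in the receptor differences was not tested.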

How the data were processed

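RNA from prefrontal cortex was sequenced by the authors as paired-end mRNA libraries, trimmed with Trimmomatic 0.39, aligned to mm10 with STAR 2.7.10b and quantified with StringTie 1.3.6. Whole-number gene counts, exported with prepDE and not normalized, were deposited by the authors as 1 table. The annotation release and the strand setting are not given in the sources used here. Low counts peaked at 3 and 6 in all 17 libraries, so that 1 fragment is about 3 counts and the limit for a count of 0 was set at 9 counts. Coordinates are those of GENCODE M21 (GRCm38), which matched 52029 of 56953 identifiers and all 8 receptor genes.

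Groups follow the labels. Counts were fitted as deposited with edgeR 4.0.16 (R 4.3.3): TMM scaling, genes kept by filterByExpr, 1 mean per genotype over all libraries, a quasi-likelihood test, and calls at an FDR under 0.05 over 23062 genes. The common biological coefficient of variation was 0.316. Drd3 was below the filter and, like the receptor ratios, was compared by exact permutation tests (scipy 1.17.1) on log2(CPM + 0.1). The edgeR, DESeq2 and limma fits of WT against PS19 were tested on simulated counts with known changes. Tables and plots used Python 3.11.15, numpy 2.4.6, pandas 2.3.3 and matplotlib 3.10.9. Nothing in the labels says that samples came from separate litters or preparation days, and p-values measure the spread between these samples.

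The receptor genes and the lists were chosen with earlier results of these data known. All 8 receptor genes are named. From each list the calls are counted, and in the marker lists of the striatum and the pathway lists the 3 most abundant genes are named (all genes for direct and indirect pathway neurons). The 3 genes most correlated with each tested receptor gene are named too. Some genes that these rules would name are not reported here. Lists were the markers of striatal medium spiny, direct pathway, indirect pathway, cortical glutamatergic, cholinergic, and midbrain dopamine neurons, choroid plexus, astrocytes, oligodendrocytes, microglia and endothelial cells, and genes of dopamine supply, dopamine signalling and adenosine handling. Alternatives were DESeq2 1.42.0, its size factors, no filter, at least 10 counts in every library, 2 genotypes per fit, a replicate block, counts divided by 3, limma 3.58.1 voom with quality weights, the striatal score or Ddx3y as a covariate, near-identical libraries averaged, mitochondrial genes left out, the threshold in the study's methods (absolute log2 fold change over 0.5, p under 0.01), a pseudocount of 1 CPM for the ratios, and each library left out. The study's results state another, stricter threshold for their gene counts, which was not used here. The fits to libraries with Ddx3y above or at most 1 CPM were chosen after seeing the data.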

Additional observations from a re-analysis of the deposited data

Results flagged for a closer look

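The change in CgA-KO/PS19 against PS19 differed between the libraries with Ddx3y above 1 CPM and the others, by 5.98 (log2) for Drd2, 6.50 for Adora2a and 1.39 for Adora2b (adjusted p = 0.00237, 0.00219 and 0.0486 in edgeR, test of the interaction). Against WT the same difference was 5.93 for Drd2, 5.94 for Adora2a and 2.53 for Drd1 (adjusted p = 0.00579, 0.00807 and 0.0420 in edgeR). The division by Ddx3y was chosen after seeing the data, and in CgA-KO/PS19 it also separates the libraries with high mitochondrial shares from the rest. The PS19 libraries without Ddx3y were the nearly identical replicates 4 to 6, counted here as separate samples, as were CgA-KO/PS19 replicates 1 and 3.

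Single libraries stood apart from their group by Dixon's criterion at the 95% level, which chance alone meets in about 1 in 20 groups, and 39 groups were examined. In PS19 replicate 6, Drd3 was at 0.0132 CPM, from 3 counts, with 0 counts in the rest of the group. The log2 ratio of Adora2a to Drd2 was -1.28 in CgA-KO/PS19 replicate 6, the lowest of its group. In WT replicate 4, the shallowest library, the log2 ratio of Drd1 to the striatal list was the highest of its group at -0.016, and that of Adora2a to the list was the lowest at -1.26.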

How the results depend on the processing

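Receptor genes called in WT against PS19 numbered 2 to 4 under every alternative, against 3, and Drd2 was called in all 31. The gene gained without the filter was Drd3. In CgA-KO/PS19 against PS19, against 3, 1 was called with the replicate number as a block, 0 with near-identical libraries averaged (3 at an unadjusted p under 0.05), 5 in libraries with Ddx3y above 1 CPM and 0 in those with at most 1 CPM (edgeR; 1 at an unadjusted p under 0.05), and 2 to 4 otherwise. In CgA-KO/PS19 against WT, against 1, 2 were called with Ddx3y above 1 CPM (Drd5 and Adora2b) and 3 with at most 1 CPM. All other alternatives called 1. The 3 were Drd1 at -2.61, Drd2 at -6.21 and Adora2a at -6.42 (adjusted p = 0.00884, 0.00306 and 0.00674 in edgeR). WT was replicates 4 and 5 alone in that fit. Over all genes the fits with Ddx3y above and at most 1 CPM called 4474 and 718. The cause was not tested. The replicate numbers do not pair the samples: deviations of same-numbered libraries correlated at -0.23 to 0.44, over 0.1 in 2 of 16 pairs, and 3 of 17 libraries correlated best with their own number. The block also left Adora2a at an adjusted p of 0.0534 in WT against PS19 (edgeR), and over all genes it gave 660, 654 and 614 calls, against 1361, 2242 and 1489 in WT against PS19, CgA-KO/PS19 against PS19 and CgA-KO/PS19 against WT. Over all alternatives these ran from 128 to 4087, 156 to 6713 and 266 to 4756.

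Signs changed in these cases. With the striatal score, Adora1 was at 0.48, 0.19 and -0.29 in the 3 comparisons in that order, and Adora2b at -0.27 in CgA-KO/PS19 against PS19. With Ddx3y at most 1 CPM, CgA-KO/PS19 against PS19 gave -0.0083 for Drd2, 0.17 for Adora1, -1.13 for Adora2a and -0.67 for Adora2b, and against WT 1.78 for Drd4 and -0.37 for Adora2b. Against WT, Adora1 was at -0.10 with Ddx3y above 1 CPM, and Drd4 at 0.030 with near-identical libraries averaged. With each library left out, CgA-KO/PS19 against PS19 ran from -0.19 to 0.054 for Adora1 and from -0.066 to 0.20 for Adora2b, and against WT from -0.76 to 0.092 for Drd4, from -0.027 to 0.23 for Adora1, from -0.37 to 0.066 for the ratio of Adora2a to Drd2 and from -0.080 to 0.088 for that of Drd1 to the striatal list. None of these was called over all libraries but Drd2 and Adora2a. Depth limits Drd3, Drd4 and WT replicate 4.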
